A study of Homo sapiens with 6 samples.

Results

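Interferon-stimulated genes encode the proteins with which a cell senses, marks and blocks viruses. They were described here in PC3 prostate cancer cells with and without overexpression of GCNT1, the enzyme that builds core 2 branched O-glycans. The genes came from a fixed list of 60 symbols of the interferon response, by a rule that used no measured values, although the list was drawn up with earlier results of these data known. Of these, 55 were found by their Entrez identifiers among the 12703 genes of the deposited count table. DHX58, RTP4, IFI27, XAF1 and EPSTI1 were not analysed here.

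The cells were PC3, an established line that was derived from a bone metastasis of human prostate cancer. The control group held 3 stable PC3 lines made with negative-control Lenti-ORF particles, and the overexpression group held 3 stable PC3 lines made with lentiviral particles carrying the GCNT1 open reading frame. One stranded mRNA library was sequenced from each line, and the deposited values were raw read counts per gene. The comparison addressed which genes differ in expression when GCNT1 is raised in these cells. The labels name no interferon treatment in either group. They call the libraries biological replicates and do not say whether the lines of a group came from separate transductions or cultures, so the p-values measure only the spread between these lines. GCNT1 and any other difference between the sets of lines cannot be told apart. Total counts were 12755888, 12717300 and 12125672 in control libraries 1, 2 and 3, and 11392213, 13411484 and 13825704 in overexpressing libraries 1, 2 and 3. At these totals 3 counts, the floor used here, corresponded to between 0.217 and 0.263 CPM (the count scaled to its library total), which covers counting error only. The other CPM values are adjusted with edgeR's TMM factors, which correct the library totals for composition.

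Interferons are secreted proteins that bind receptors on the cell surface and act through JAK kinases. These kinases switch on a complex that holds STAT2 and IRF9 and binds the interferon-stimulated response element in the promoters of its target genes, and interferon gamma acts through a related sequence, the gamma-activated site. Many target genes have a low level of expression without added interferon, in cultured cancer cells as in normal tissue, and several encode sensors and transcription factors of the same pathway.

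GCNT1 itself (Entrez 2650, chr9:76393869-76507416 of GRCh38.p14, plus strand) was counted low in all 6 libraries. It had 9, 13 and 8 reads in the control libraries and 13, 16 and 35 in the overexpressing libraries. The groups were separate in CPM, but narrowly, with 1.04 CPM in the highest control library and 1.12 CPM in the lowest overexpressing library, and overexpressing library 3 stood above the rest at 2.48 CPM. Its normalised level rose from 0.812 ± 0.202 to 1.59 ± 0.772 CPM (SD, n = 3 per group), a log2 fold change of 0.98 (SE 0.37, edgeR's quasi-likelihood test, Benjamini-Hochberg-adjusted p = 0.0362). All genes of the deposited table had at least 1.01 CPM in their 3 highest libraries. GCNT1 was under that level in control libraries 1 and 3 and above it in every overexpressing library. It could thus enter the table through the overexpressing group, so its p-value is given as a description only. The call depended on single libraries. Without overexpressing library 3 the log2 fold change was 0.49 with an adjusted p of 0.269 (edgeR), without control library 1 it was 0.91 with 0.0920, and without control library 3 it was 0.88 with 0.0944. DESeq2 gave 0.98 with an adjusted p of 0.0821, and over the alternatives tried the adjusted p ranged from 0.0110 to 0.269. PRUNE2 overlaps the GCNT1 span on the opposite strand. The study also assayed GCNT1 in PC3 overexpression cells by real-time PCR, ELISA and immunocytochemistry, whose values are not used here. How much of the lentiviral transcript falls on the annotated gene was not tested.

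Interferon-stimulated genes were mostly higher in the GCNT1-overexpressing lines. A gene was taken as changed when its adjusted p was under 0.05 and its absolute log2 fold change was at least 0.58, in the quasi-likelihood test of edgeR with p adjusted by the Benjamini-Hochberg method over all 12703 genes. By this rule 28 of the 55 genes rose (50.9%), where 8.28% of all genes rose. GBP1 alone fell (1.82%), where 11.1% of all genes fell, and 29 genes changed in either direction (52.7%), where 19.3% of all genes did. With library size in place of TMM factors, 30 of the 55 rose and 1 fell, beside 10.1% of all genes higher and 9.68% lower. With glmTreat, which tests against the fold threshold itself, 22 rose and 1 fell, beside 4.15% and 6.81% of all genes, and RIGI, IFITM3, BST2, PLSCR1, LAMP3 and TRIM14 did not pass. The 26 that did not change by this rule had log2 fold changes from -0.36 to 0.58, 21 of them above 0, and the upper end, GBP2 at 0.576, was under the threshold before rounding. MX1 had the greatest log2 fold change of the 55, at 3.62, and was 35th from the top of all genes. IFI16 and MX2 were also among the 100 highest of all genes.

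By adjusted p alone, 44 of the 55 genes were higher (80.0%) and 5 were lower (9.09%), beside 28.3% and 29.3% of all genes. With library size in place of TMM factors these counts became 46 and 2, beside 33.8% and 24.8% of all genes. Over the alternatives tried, from 40 to 46 of the 55 were higher and from 2 to 5 were lower by adjusted p alone. The 3 control and the 3 overexpressing CPM values did not overlap, with overexpression higher, in 42 of the 55 genes (76.4%), where this held for 30.9% of all genes. The reverse held for 4 of the 55, where it held for 31.6% of all genes. The median log2 fold change of the 55 genes was 0.62 and that of all genes was 0.00. The genes that rose made up 2.66% of all genes that did, while the 55 made up 0.433% of the genes analysed. All genes in the deposited table had at least 1.01 CPM in their 3 highest libraries. MX2, BST2, RSAD2 and TRIM22 were under that level in at least 1 control library and above it in every overexpressing library, and GBP1 was the reverse. These 5 could enter the table through 1 group, so the counts and the median are given as descriptions only.

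**Figure D1:**
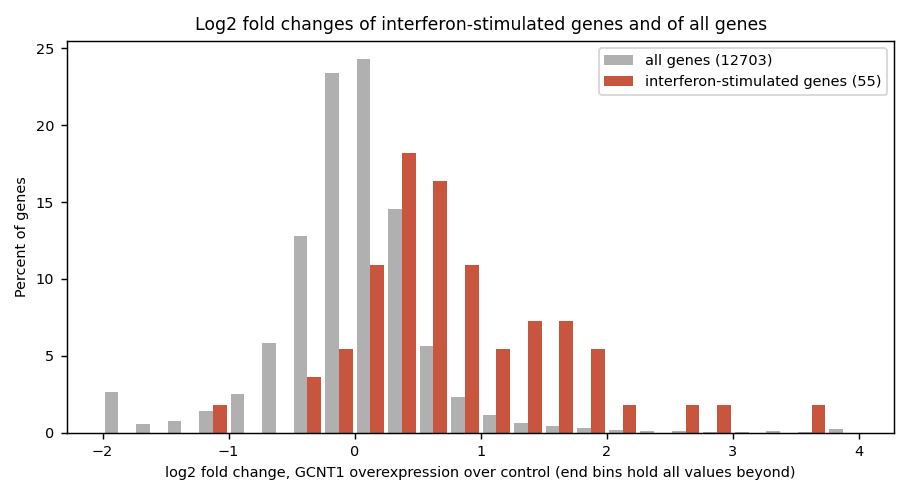
Percent of genes in each bin of log2 fold change (overexpression over control), for all 12703 genes (grey) and for the 55 interferon-stimulated genes (red), with the end bins holding all values beyond them. The interferon-stimulated genes lie to the right, with a median of 0.62 beside 0.00 for all genes.

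The summed level of the 55 genes was 2038, 2040 and 2025 CPM in the control libraries after TMM normalisation. In the overexpressing libraries it was 3043, 3174 and 2888 CPM. The groups were separate and the means were 2034 ± 8.18 and 3035 ± 144 CPM (SD, n = 3 per group), a ratio of 1.49. TRIM25 had the highest mean CPM of the 55 over the 6 libraries, at 195 CPM in control and 213 CPM in overexpression, while IFITM3 was above it in overexpression, at 239 CPM. The RNA was extracted from whole cultures, in which more cells expressing a gene and more RNA per cell cannot be told apart.

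**Figure D2:**
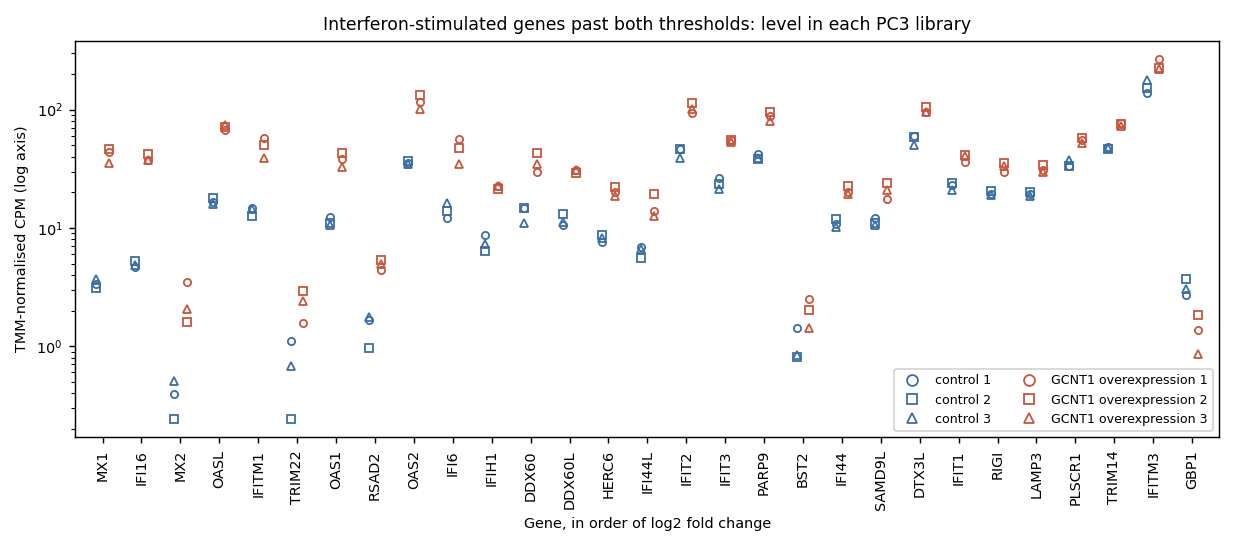
TMM-normalised CPM on a log axis for each of the 29 interferon-stimulated genes that changed, in order of log2 fold change, with 1 symbol per library (blue, 3 control libraries; red, 3 overexpressing libraries). MX1 is at the left with a log2 fold change of 3.62, GBP1 at the right with -1.22, and the groups overlap in BST2 alone.

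The promoters of these genes were searched for the letters of both elements named above. The windows were the RefSeq promoters of GRCh38.p14, each 300 bases long with 250 bases before the transcription start, and 45 of the 55 genes had at least 1. IFIT2, OAS2, OASL, USP18, MX2, GBP2, IFITM2, LAMP3, PARP10 and TRIM22 had none listed. The core of the interferon-stimulated response element was searched as GAAANNGAA on both strands, which reads TTCNNTTTC on the other strand. It was present for 33 of the 45 genes (73.3%), where it was present for 900 of the 10236 analysed genes with a listed promoter (8.79%) and in 2847 of all 35116 promoters (8.11%). The gamma-activated site was searched as TTCNNNGAA, which reads the same on both strands and can share its last bases with the other motif. It was present for 11 of the 45 genes (24.4%), for 876 of the 10236 analysed genes (8.56%) and in 2689 of all promoters (7.66%).

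Among the 33 genes whose promoter held GAAANNGAA, 18 rose and GBP1 fell, and the median log2 fold change was 0.66. Among the 12 without it, 4 rose and the median was 0.24. Those 4, RIGI, OAS1, HERC6 and SAMD9L, are named after their values were seen. Among the 10 genes with no listed promoter, IFIT2, OAS2, OASL, MX2, LAMP3 and TRIM22 rose. USP18, GBP2, IFITM2 and PARP10, also without one, did not pass both thresholds. Over all analysed genes with a listed promoter, 11.0% of those with the motif rose and 10.3% fell, 7.44% of those without it rose and 10.5% fell, and the medians were 0.04 with the motif and 0.00 without it. A match describes the letters of a window and does not show binding, and a missing match says only that the letters are not in that window.

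The promoters of MX1, the gene with the greatest fold, and GBP1, the gene that fell, are printed whole, 5′ to 3′ on the strand of the gene, with matches to either motif on either strand in capitals. That of MX1 is chr21:41420308-41420607 (plus strand) of GRCh38.p14, where 2 overlapping matches lie just past the start of the first of its 3 listed start sites. That of GBP1 is chr1:89065159-89065458 (minus strand), with 1 match on each strand. GAAANNGAA was thus present in the window of the gene that rose most and in that of the gene that fell.
MX1: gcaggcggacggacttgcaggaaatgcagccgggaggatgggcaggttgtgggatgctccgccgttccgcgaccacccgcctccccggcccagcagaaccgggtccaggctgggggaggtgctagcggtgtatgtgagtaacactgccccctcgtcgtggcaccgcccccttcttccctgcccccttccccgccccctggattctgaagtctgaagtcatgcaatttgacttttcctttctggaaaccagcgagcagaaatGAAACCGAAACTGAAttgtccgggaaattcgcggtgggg
GBP1: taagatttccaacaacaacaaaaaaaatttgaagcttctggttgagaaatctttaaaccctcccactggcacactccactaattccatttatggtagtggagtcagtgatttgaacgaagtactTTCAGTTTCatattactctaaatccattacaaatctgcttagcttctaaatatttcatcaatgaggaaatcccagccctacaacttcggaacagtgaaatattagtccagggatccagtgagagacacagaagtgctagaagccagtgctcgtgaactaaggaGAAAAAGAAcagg

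Shorter windows are printed for genes of the role groups that follow. Each holds the GAAANNGAA match nearest to the start and 25 bases on either side. The fixed letters of the match are alike because the search required them. DDX60 and DDX60L are neighbouring paralogs, ISG15 carries 3 overlapping matches in a run, and in IFITM1 and BST2 a match to TTCNNNGAA runs into one to GAAANNGAA. The windows of GRCh38.p14 are chr1:159009808-159009866 (plus strand) for IFI16, chr4:168318772-168318830 (minus strand) for DDX60, chr4:168480509-168480567 (minus strand) for DDX60L, chr10:89332454-89332512 (plus strand) for IFIT3, chr1:1013371-1013429 (plus strand) for ISG15, chr11:314009-314067 (plus strand) for IFITM1, chr11:320862-320920 (minus strand) for IFITM3, chr19:17405721-17405779 (minus strand) for BST2, chr2:6865781-6865839 (plus strand) for RSAD2 and chr1:27672252-27672310 (minus strand) for IFI6.
IFI16: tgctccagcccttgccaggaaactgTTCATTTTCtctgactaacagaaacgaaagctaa
DDX60: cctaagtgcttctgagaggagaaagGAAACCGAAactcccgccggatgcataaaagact
DDX60L: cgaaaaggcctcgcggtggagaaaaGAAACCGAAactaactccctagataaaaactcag
IFIT3: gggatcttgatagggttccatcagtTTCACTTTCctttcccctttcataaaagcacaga
ISG15: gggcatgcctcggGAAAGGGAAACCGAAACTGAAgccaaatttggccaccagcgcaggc
IFITM1: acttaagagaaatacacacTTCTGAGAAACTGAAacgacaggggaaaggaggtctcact
IFITM3: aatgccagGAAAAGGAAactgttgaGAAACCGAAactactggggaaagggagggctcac
BST2: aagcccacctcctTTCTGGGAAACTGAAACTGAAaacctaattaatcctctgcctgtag
RSAD2: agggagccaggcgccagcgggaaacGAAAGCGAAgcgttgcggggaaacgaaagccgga
IFI6: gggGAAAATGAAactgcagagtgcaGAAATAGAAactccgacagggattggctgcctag

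Both PARP9 and DTX3L, whose transcripts start close together on opposite strands, had the same match in their promoters, at chr3:122564332-122564340. RSAD2 and CMPK2, which also lie head to head, shared the match at chr2:6865806-6865814. Each pair is therefore 1 match read from both sides. The shared window of PARP9 and DTX3L is printed on the strand of each gene, at chr3:122564307-122564365 of GRCh38.p14, plus strand for DTX3L and minus strand for PARP9.
DTX3L: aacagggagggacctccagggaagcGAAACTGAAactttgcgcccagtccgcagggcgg
PARP9: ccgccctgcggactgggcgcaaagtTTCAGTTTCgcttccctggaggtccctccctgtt

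The sensors came first among the role groups by median, with 5 of the 6 analysed genes higher, none lower and a median log2 fold change of 1.39. These proteins recognise foreign nucleic acid in the cell, and every one of the 5 was higher in each overexpressing line than in each control line. IFI16, a sensor of DNA, had 59, 65 and 57 reads in the control libraries and 433, 576 and 533 in the overexpressing libraries. Its level rose from 4.91 ± 0.277 to 39.0 ± 2.51 CPM (SD, n = 3 per group), a log2 fold change of 2.99 (SE 0.10, edgeR's quasi-likelihood test, Benjamini-Hochberg-adjusted p = 4.78e-11), or 7.94-fold. The groups were far apart, with 65 reads in the highest control library and 433 in the lowest overexpressing library. IFIH1, the helicase also called MDA5 that recognises long double-stranded RNA, had 110, 80 and 87 reads in the control libraries and 264, 296 and 319 in the overexpressing libraries. It rose from 7.51 ± 1.17 to 22.3 ± 0.679 CPM (SD, n = 3 per group), with a log2 fold change of 1.57 (SE 0.11, edgeR's quasi-likelihood test, Benjamini-Hochberg-adjusted p = 5.81e-08). DDX60, a helicase linked to RIGI signalling, had 185, 185 and 130 against 342, 588 and 492 reads and rose by 1.40 (SE 0.14, edgeR's quasi-likelihood test, Benjamini-Hochberg-adjusted p = 2.01e-06) on the log2 scale. Its paralog and neighbour DDX60L had 134, 162 and 132 against 356, 398 and 439 reads and a log2 fold change of 1.38 (SE 0.09, edgeR's quasi-likelihood test, Benjamini-Hochberg-adjusted p = 3.63e-08), close to that of DDX60.

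RIGI, the helicase that recognises short RNA with a triphosphate end, had 242, 254 and 225 reads in the control libraries and 343, 486 and 473 in the overexpressing libraries. Its groups were separate, and it rose from 19.6 ± 0.739 to 32.8 ± 2.93 CPM (SD, n = 3 per group), with a log2 fold change of 0.75 (SE 0.08, edgeR's quasi-likelihood test, Benjamini-Hochberg-adjusted p = 6.05e-06). Of the 75-base windows of the RIGI transcript 96.6% also occur in an annotated readthrough gene on the same strand, so how its reads were assigned is uncertain. TRIM25, the ubiquitin ligase that modifies RIGI, was the sensor-group gene with the highest level per length, from 34.0 in control to 37.0 CPM per kb of transcript. It had 2437, 2499 and 2265 reads in the control libraries and 2366, 3037 and 3001 in the overexpressing libraries, and its log2 fold change was 0.12 (SE 0.05, edgeR's quasi-likelihood test, Benjamini-Hochberg-adjusted p = 0.0419), under the fold threshold. Over the alternatives its adjusted p ranged from 0.00609 to 0.137, and it was above 0.05 with DESeq2 (0.0767), with the replicate number as a block (0.107) and without any 1 library other than overexpressing library 1.

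**Figure D3:**
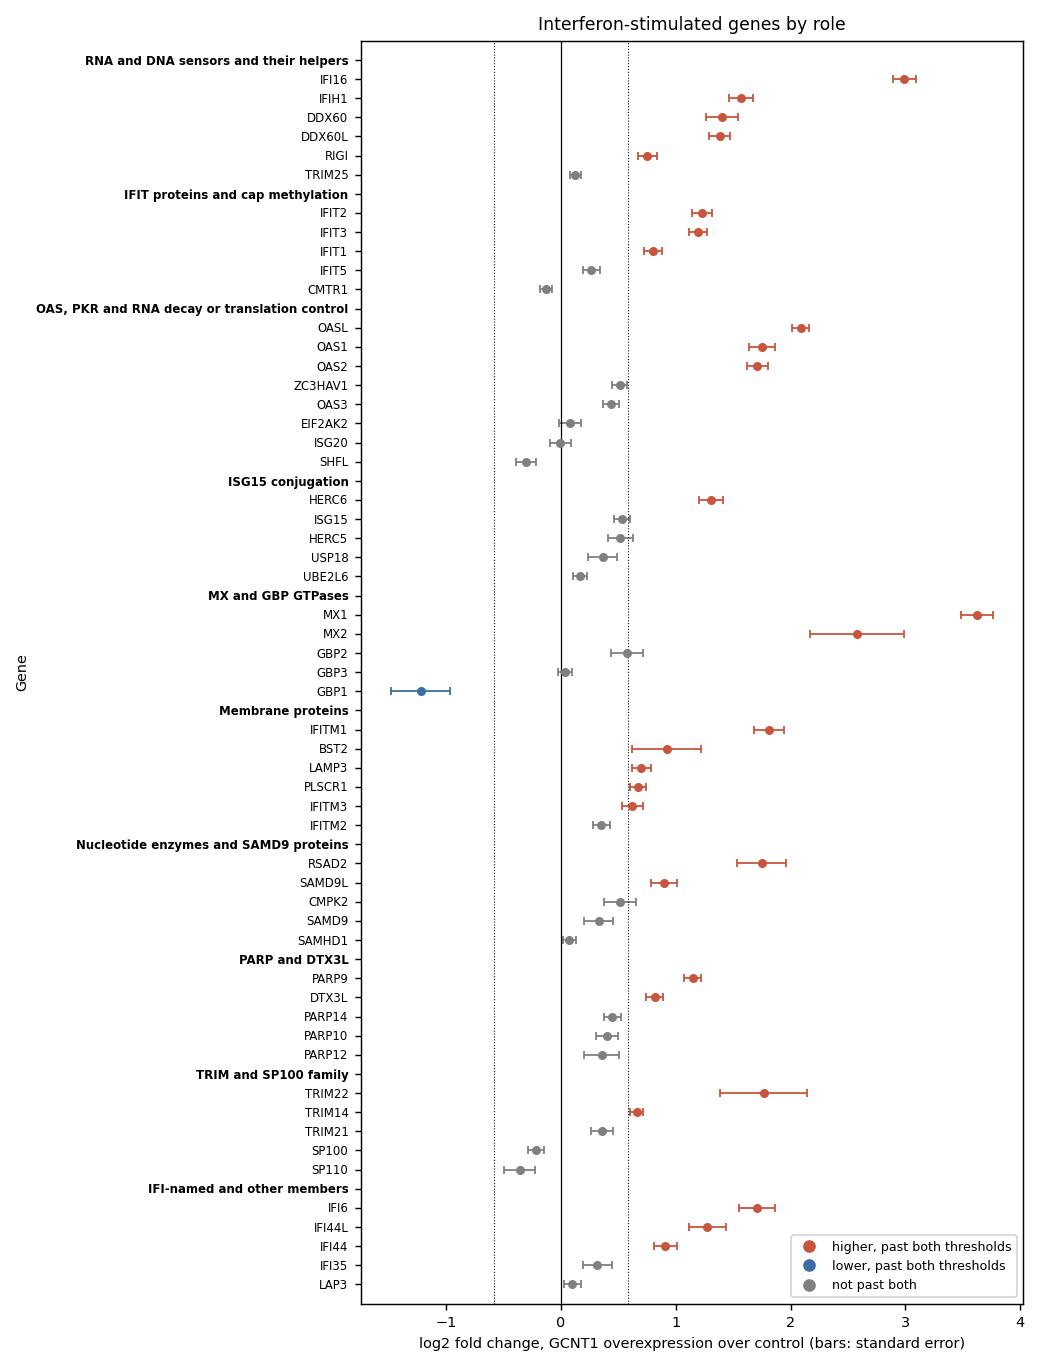
Log2 fold change (overexpression over control) of each of the 55 interferon-stimulated genes by role, with bars for the standard error and dotted lines at an absolute value of 0.58. Red points (28) rose, the blue point (GBP1) fell and grey points (26) did not pass both thresholds.

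Of the IFIT proteins and cap methylation, 3 of 5 genes were higher and none lower, with a median log2 fold change of 0.81. IFIT1 binds RNA whose cap lacks ribose methylation, IFIT2 and IFIT3 form complexes with it, and CMTR1 is the enzyme that adds such a methyl group to the cell's own RNA. IFIT2 had 588, 584 and 461 reads in the control libraries and 1083, 1572 and 1440 in the overexpressing libraries. It rose from 44.2 ± 4.51 to 103 ± 10.5 CPM (SD, n = 3 per group), a log2 fold change of 1.23 (SE 0.09, edgeR's quasi-likelihood test, Benjamini-Hochberg-adjusted p = 7.24e-08). IFIT3 had 330, 294 and 254 against 637, 764 and 745 reads and rose from 23.8 ± 2.37 to 54.5 ± 1.49 CPM (SD, n = 3 per group), with a log2 fold change of 1.19 (SE 0.08, edgeR's quasi-likelihood test, Benjamini-Hochberg-adjusted p = 2.90e-08). The groups did not overlap in either gene, nor in IFIT1, which had 288, 298 and 247 against 421, 563 and 576 reads and rose by 0.81 (SE 0.08). Genes that did not pass both thresholds are named in this and the following role groups where a group held 5 or fewer of them, and those names were added after the values were seen. IFIT5, the gene at the far end of the same cluster, had 287, 272 and 264 against 314, 386 and 356 reads and a log2 fold change of 0.26. CMTR1 had the highest level per length of the group over the 6 libraries, from 28.5 in control to 26.0 CPM per kb, while IFIT2 was above it in overexpression, at 30.5 CPM per kb. It had 1427, 1390 and 1414 against 1236, 1445 and 1441 reads, and its log2 fold change of -0.13 (SE 0.05, edgeR's quasi-likelihood test, Benjamini-Hochberg-adjusted p = 0.0414) was under the fold threshold. Over the alternatives its adjusted p ranged from 0.0308 to 0.219, and it was above 0.05 with DESeq2 (0.0827), with library size alone (0.219), with the replicate number as a block (0.120) and without any 1 library other than overexpressing library 1.

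Oligoadenylate synthetases make the second messenger that switches on RNase L, which degrades RNA. In the group that holds them, together with PKR and factors of RNA decay and translation, 3 of 8 genes were higher and none lower, and the median log2 fold change was 0.47. OASL, the family member without synthetase activity, had 208, 221 and 187 reads in the control libraries and 778, 988 and 1039 in the overexpressing libraries. It rose from 16.7 ± 0.977 to 70.9 ± 3.32 CPM (SD, n = 3 per group), a log2 fold change of 2.09 (SE 0.07, edgeR's quasi-likelihood test, Benjamini-Hochberg-adjusted p = 8.14e-11), or 4.25-fold. OAS2 had 450, 459 and 407 reads in the control libraries and 1347, 1828 and 1418 in the overexpressing libraries, and rose from 35.7 ± 1.22 to 117 ± 16.3 CPM (SD, n = 3 per group) with a log2 fold change of 1.71 (SE 0.09, edgeR's quasi-likelihood test, Benjamini-Hochberg-adjusted p = 5.47e-09). OAS1 had 156, 138 and 125 against 447, 595 and 465 reads, and its log2 fold change was 1.75 (SE 0.11, edgeR's quasi-likelihood test, Benjamini-Hochberg-adjusted p = 2.81e-08). In OASL, OAS1 and OAS2 the groups were far from overlapping, and overexpressing library 2 was the highest in CPM for OAS1 and OAS2. OAS3, between OAS1 and OAS2 on chromosome 12, had the highest level per length of the group, from 18.8 in control to 25.4 CPM per kb. It had 1585, 1523 and 1472 against 1898, 2594 and 2130 reads, and its log2 fold change of 0.43 (SE 0.07, edgeR's quasi-likelihood test, Benjamini-Hochberg-adjusted p = 1.66e-04) was under the fold threshold. ZC3HAV1, which binds CpG-rich viral RNA, had 1289, 1261 and 1108 against 1486, 2048 and 2061 reads and a log2 fold change of 0.51. EIF2AK2, which encodes the kinase PKR that halts translation, had 881, 820 and 686 against 660, 1063 and 985 reads and overlapping groups, with a log2 fold change of 0.08. ISG20, an exonuclease, stood at -0.01 and had the opposite sign with library size alone, and SHFL, an inhibitor of ribosomal frameshifting, stood at -0.30.

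ISG15 is a ubiquitin-like protein that is joined to other proteins by UBE2L6 and HERC5 and removed by USP18. In this group 1 of 5 genes was higher and none lower, with a median log2 fold change of 0.52, and with library size alone ISG15 passed as a 2nd. HERC6, a relative of HERC5, had 96, 109 and 98 reads in the control libraries and 235, 307 and 262 in the overexpressing libraries. No library of 1 group reached the other, and it rose from 8.22 ± 0.566 to 20.4 ± 1.89 CPM (SD, n = 3 per group), a log2 fold change of 1.31 (SE 0.10, edgeR's quasi-likelihood test, Benjamini-Hochberg-adjusted p = 2.86e-07). ISG15 itself had the highest level per length of the group, from 84.8 in control to 123 CPM per kb. It had 687, 679 and 625 reads in the control libraries and 1001, 1060 and 1002 in the overexpressing libraries. These groups were also separate, and its log2 fold change was 0.53 (SE 0.07, edgeR's quasi-likelihood test, Benjamini-Hochberg-adjusted p = 3.16e-05), under the fold threshold. It passed that threshold with library size alone (0.59) and without overexpressing library 3 (0.60). HERC5 had 115, 106 and 111 against 145, 198 and 165 reads and a log2 fold change of 0.52, and passed without overexpressing library 3 (0.585). USP18 had 89, 105 and 76 against 103, 125 and 144 reads and a log2 fold change of 0.36, and UBE2L6 had 1126, 1115 and 1112 against 1252, 1400 and 1359 reads and 0.17. USP18 shares 43.7% of its 75-base windows with USP41 and other annotated copies, so its reads are less certain. By adjusted p alone each of the 5 genes passed 0.05.

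MX proteins and guanylate-binding proteins are large GTPases, the first acting on viral capsids and ribonucleoproteins and the second on membranes around pathogens. Here 2 of 5 genes were higher and 1 was lower, with a median log2 fold change of 0.58, and with library size alone GBP2 passed as a 3rd that was higher (0.63). MX1 (Entrez 4599, chr21:41420558-41459214) had 42, 39 and 44 reads in the control libraries and 504, 643 and 498 in the overexpressing libraries. It rose from 3.40 ± 0.299 to 41.9 ± 5.93 CPM (SD, n = 3 per group), a log2 fold change of 3.62 (SE 0.14, edgeR's quasi-likelihood test, Benjamini-Hochberg-adjusted p = 2.22e-10), or 12.3-fold. The lowest overexpressing count, 498, was far above the highest control count, 44. Of the MX1 transcript 236 bases lie under exons of an antisense RNA. MX2, its neighbour, was rarely counted, with 5, 3 and 6 reads in the control libraries and 40, 22 and 29 in the overexpressing libraries. It was near the floor of 3 counts in the controls and rose from 0.382 ± 0.134 to 2.37 ± 0.967 CPM (SD, n = 3 per group), a log2 fold change of 2.58 (SE 0.41, edgeR's quasi-likelihood test, Benjamini-Hochberg-adjusted p = 1.24e-04). GBP1 (Entrez 2633, chr1:89052319-89065208) went the other way, with 34, 46 and 36 reads in the control libraries and 16, 25 and 12 in the overexpressing libraries. Its groups were separate at low counts, and it fell from 3.15 ± 0.504 to 1.35 ± 0.485 CPM (SD, n = 3 per group), a log2 fold change of -1.22 (SE 0.26, edgeR's quasi-likelihood test, Benjamini-Hochberg-adjusted p = 0.00125). GBP2 and GBP3, the other listed genes of its cluster, did not fall. Of the analysed genes next to the cluster, KYAT3, RBMXL1 and GBP7 stood at -0.26, -0.16 and -0.24 and GBP4 at 0.18. None of these passed both thresholds. GBP2 had 104, 76 and 90 against 105, 169 and 158 reads and a log2 fold change of 0.576, and passed without control library 1 (0.68), control library 3 (0.60) or overexpressing library 1 (0.68). GBP3, with the highest level per length of the group, from 16.5 in control to 17.0 CPM per kb, had 651, 599 and 597 against 608, 726 and 693 reads and a log2 fold change of 0.04 (SE 0.06, edgeR's quasi-likelihood test, Benjamini-Hochberg-adjusted p = 0.611). GBP1 shares 5.52% of its 75-base windows with GBP3 and the pseudogene GBP1P1.

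Membrane proteins of the response were higher in 5 of 6 analysed genes and lower in none, with a median log2 fold change of 0.69. The IFITM proteins block the fusion of virus and host membranes, and IFITM1 had the greatest fold of the group. It had 184, 156 and 170 reads in the control libraries and 666, 685 and 550 in the overexpressing libraries, and rose from 13.8 ± 1.14 to 48.8 ± 9.33 CPM (SD, n = 3 per group), a log2 fold change of 1.81 (SE 0.13, edgeR's quasi-likelihood test, Benjamini-Hochberg-adjusted p = 1.06e-07). IFITM3 had the highest level per length of all 55 genes, from 254 in control to 392 CPM per kb. It had 1731, 1893 and 2088 reads in the control libraries and 3121, 3098 and 3146 in the overexpressing libraries. In CPM the groups were separate, and it rose from 155 ± 19.8 to 239 ± 26.3 CPM (SD, n = 3 per group), with a log2 fold change of 0.62 (SE 0.09, edgeR's quasi-likelihood test, Benjamini-Hochberg-adjusted p = 5.08e-05). It was under the fold threshold without control library 1 (0.55) and without overexpressing library 1 (0.53). IFITM2 had 1407, 1500 and 1624 against 1944, 2056 and 2171 reads and a log2 fold change of 0.35. Of the 75-base windows of IFITM1 52.2% occur in an annotated readthrough gene, IFITM2 or IFITM3, and 12.5% of those of IFITM3 occur in other genes, so the split of reads among these paralogs is uncertain.

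BST2, the tetherin that holds budding virus at the cell surface, was the changed gene with overlapping groups. It had 18, 10 and 10 reads in the control libraries and 29, 28 and 20 in the overexpressing libraries, and control library 1 reached into the overexpressing range. Its log2 fold change was 0.92 (SE 0.30, edgeR's quasi-likelihood test, Benjamini-Hochberg-adjusted p = 0.0196). It no longer passed without control library 2 (0.77, adjusted p = 0.0829, edgeR), control library 3 (0.80, 0.0625) or overexpressing library 1 (0.74, 0.0599), nor with DESeq2 (0.94, 0.0537), and over the alternatives its adjusted p ranged from 0.00831 to 0.0829. PLSCR1, a phospholipid scramblase, had 423, 413 and 445 against 647, 795 and 744 reads and rose by 0.67 (SE 0.07, edgeR's quasi-likelihood test, Benjamini-Hochberg-adjusted p = 3.12e-06) on the log2 scale. LAMP3, a protein of the lysosomal membrane, had 246, 252 and 219 against 361, 468 and 416 reads and rose by 0.70 (SE 0.08, edgeR's quasi-likelihood test, Benjamini-Hochberg-adjusted p = 8.44e-06) on the log2 scale. In both of these genes every overexpressing library was above every control library.

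Enzymes that act on nucleotides, grouped with the SAMD9 proteins, were higher in 2 of 5 genes and lower in none, with a median log2 fold change of 0.51. RSAD2 encodes viperin, which turns CTP into a chain terminator of viral RNA synthesis. It had 21, 12 and 21 reads in the control libraries and 51, 74 and 70 in the overexpressing libraries. These counts are low but the groups were separate, and it rose from 1.47 ± 0.441 to 4.92 ± 0.492 CPM (SD, n = 3 per group), a log2 fold change of 1.75 (SE 0.21, edgeR's quasi-likelihood test, Benjamini-Hochberg-adjusted p = 1.45e-05). CMPK2, the mitochondrial nucleotide kinase encoded head to head with RSAD2, had 63, 52 and 60 against 72, 93 and 103 reads and a log2 fold change of 0.51, under the fold threshold. SAMD9L, a restriction factor for poxviruses that inhibits translation, had 152, 136 and 125 against 204, 327 and 295 reads and rose by 0.90 (SE 0.12, edgeR's quasi-likelihood test, Benjamini-Hochberg-adjusted p = 2.16e-05) on the log2 scale. Its neighbour SAMD9 had 529, 525 and 342 against 494, 748 and 633 reads and a log2 fold change of 0.33. SAMHD1, which depletes deoxynucleotides, had the highest level per length of the group, from 19.1 in control to 20.1 CPM per kb. It had 1152, 1104 and 1015 against 1093, 1301 and 1285 reads, and its log2 fold change was 0.07 (SE 0.05, edgeR's quasi-likelihood test, Benjamini-Hochberg-adjusted p = 0.245).

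PARP9 and DTX3L form a complex of an ADP-ribosyltransferase family protein and a ubiquitin ligase, and both rose. They were the 2 of 5 genes of their group that changed, and the median log2 fold change of the group was 0.45. PARP9 had 535, 474 and 465 reads in the control libraries and 1029, 1319 and 1141 in the overexpressing libraries. It rose from 40.0 ± 2.29 to 88.6 ± 7.58 CPM (SD, n = 3 per group), a log2 fold change of 1.15 (SE 0.07, edgeR's quasi-likelihood test, Benjamini-Hochberg-adjusted p = 3.09e-08), and had the highest level per length of the group, from 13.1 in control to 29.1 CPM per kb. DTX3L had 755, 729 and 592 reads in the control libraries and 1111, 1451 and 1349 in the overexpressing libraries, and its log2 fold change was 0.82 (SE 0.07, edgeR's quasi-likelihood test, Benjamini-Hochberg-adjusted p = 7.59e-07). The groups were separate in both genes. PARP14, in the same cluster, had 1316, 1245 and 1091 against 1465, 2059 and 1810 reads and a log2 fold change of 0.45. PARP10 had 234, 225 and 269 against 317, 366 and 344 reads and 0.40, and PARP12, the one with overlapping groups, had 89, 67 and 78 against 111, 95 and 113 reads and 0.35.

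TRIM proteins are ubiquitin ligases or adaptors of antiviral signalling, and SP100 and SP110 belong to nuclear bodies. This group was mixed, with 2 of 5 genes higher, none lower and a median log2 fold change of 0.36. TRIM14, an adaptor at the mitochondrial signalling protein MAVS, had 607, 576 and 566 reads in the control libraries and 886, 1039 and 1030 in the overexpressing libraries. Its groups were separate, and it rose by 0.66 (SE 0.06, edgeR's quasi-likelihood test, Benjamini-Hochberg-adjusted p = 4.91e-07) on the log2 scale, with the highest level per length of the group, from 10.6 in control to 16.8 CPM per kb. TRIM22 was rarely counted, with 14, 3 and 8 reads in the control libraries and 18, 40 and 34 in the overexpressing libraries. Control library 2 was at the floor of 3 counts and the groups were separate in CPM, with a rise from 0.677 ± 0.436 to 2.29 ± 0.686 CPM (SD, n = 3 per group) and a log2 fold change of 1.76 (SE 0.38, edgeR's quasi-likelihood test, Benjamini-Hochberg-adjusted p = 0.00145). TRIM21, a cytosolic antibody receptor, had 223, 242 and 255 against 302, 360 and 324 reads and a log2 fold change of 0.36. SP100 had 637, 660 and 586 against 520, 638 and 573 reads and a log2 fold change of -0.22, and SP110 had 142, 166 and 121 against 122, 127 and 108 reads and -0.36, both below 0 and under the fold threshold. Of the 55 genes, 3 have more than 10% of their exon bases under exons of the opposite strand. They are SP110 (19.5%), SHFL (32.7%) and CMPK2 (11.3%, under RSAD2), and their counts are less certain.

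The IFI-named genes left over, with LAP3, were higher in 3 of 5 analysed genes and lower in none, at a median log2 fold change of 0.91. IFI6, a protein of the endoplasmic reticulum that limits flaviviruses, had 154, 173 and 191 reads in the control libraries and 656, 646 and 491 in the overexpressing libraries. It rose from 14.1 ± 1.97 to 46.2 ± 11.0 CPM (SD, n = 3 per group), a log2 fold change of 1.71 (SE 0.16, edgeR's quasi-likelihood test, Benjamini-Hochberg-adjusted p = 1.16e-06), with the highest level per length of the group over the 6 libraries, from 17.4 in control to 56.9 CPM per kb. Its groups were far apart, although 19.2% of its 75-base windows occur in a long non-coding RNA on the same strand. IFI44L had 86, 69 and 79 against 162, 266 and 179 reads and rose from 6.35 ± 0.706 to 15.3 ± 3.54 CPM (SD, n = 3 per group), a log2 fold change of 1.28 (SE 0.16, edgeR's quasi-likelihood test, Benjamini-Hochberg-adjusted p = 2.25e-05). Its neighbour IFI44 had 135, 149 and 120 against 231, 308 and 273 reads and rose by 0.91 (SE 0.10, edgeR's quasi-likelihood test, Benjamini-Hochberg-adjusted p = 4.73e-06) on the log2 scale. In both, the groups did not overlap. IFI35 had 169, 153 and 172 against 233, 223 and 199 reads and a log2 fold change of 0.32, and LAP3, a leucine aminopeptidase, had 585, 589 and 466 against 578, 630 and 667 reads and 0.10.

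Many of these genes lie in clusters on the chromosomes. Groups of members within 300 kb of one another formed 12 clusters that held 30 of the 55 genes. The 50 other analysed genes inside or next to these clusters had log2 fold changes with a median of -0.18, and 13 of them changed, 3 higher and 10 lower, or 6% and 20% beside 8.28% and 11.1% of all genes. Genes named in this paragraph were chosen after their values were seen. FAS, the death receptor gene beside the IFIT cluster, rose by 1.05, and CDK6 and TFPI2 beside SAMD9 and SAMD9L rose by 0.70 and 0.90 on the log2 scale. LIPA, which overlaps the IFIT cluster, had a log2 fold change of 0.11. TMPRSS2 next to MX1 stood at -1.26, and RNF144A and ID2 next to RSAD2 stood at -0.89 and -1.43. MX2 and MX1, DDX60 and DDX60L, and IFI44L and IFI44 were the clusters in which every member rose. In the OAS, IFIT, IFITM, HERC, SAMD9, RSAD2 and PARP9 clusters the members were all above 0, with a part of them past both thresholds.

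The change of each gene was also set against the median log2 fold change of its 50 nearest analysed genes. The difference from that median was held to the fold threshold, while the adjusted p remained that of the test between the groups, so the difference itself was not tested. Those local medians ran from -0.50 (RSAD2 and CMPK2) to 0.43 (TRIM14) over the 55 genes, with a median of 0.05. Relative to them 29 of the 55 were past both thresholds (52.7%), beside 15.5% of all genes placed on chromosomes, and of the 29, 26 had also changed without this step. IFITM3 (0.57), LAMP3 (0.49) and TRIM14 (0.23) were under the fold threshold after it, and ISG15 (0.85), GBP2 (0.73) and CMPK2 (1.02) were past it. SP100 (0.24), SP110 (0.08) and LAP3 (-0.15) changed sign in this step, and so did IFNAR2 (-0.04) and STING1 (0.08) among the pathway genes described further on. These genes were named after their values were seen. TRIM14 was the changed gene whose surroundings were most like it, with a local median of 0.43 beside its own 0.66.

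**Figure D4:**
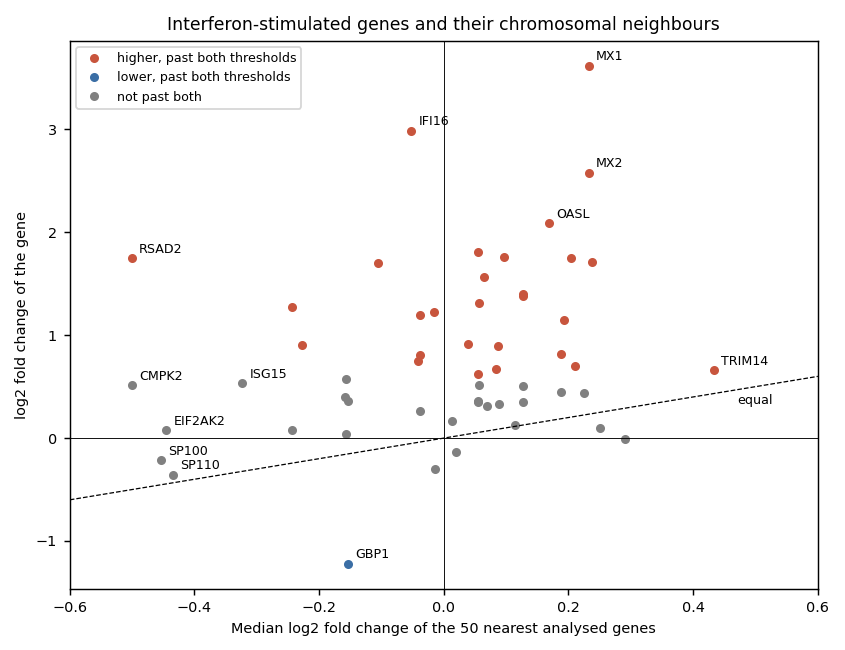
Log2 fold change of each of the 55 interferon-stimulated genes against the median log2 fold change of its 50 nearest analysed genes (red, higher; blue, lower; grey, not past both thresholds), with a dashed line where they are equal. MX1 lies at 3.62 with a local median of 0.23, and TRIM14 lies near the line at 0.66 and 0.43.

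Beyond the members, a wider list of genes of the interferon pathway was mixed. It held interferons, receptors and kinases, transcription factors, negative regulators, and genes of nucleic acid sensing and antigen presentation. Of its 52 genes 34 were analysed, none of them an interferon gene. Among the 34, 4 rose (11.8%, beside 8.28% of all genes) and 3 fell (8.82%, beside 11.1%). Together 20.6% changed, beside 19.3% of all genes. By adjusted p alone 18 were higher (52.9%) and 6 were lower (17.6%), beside 28.3% and 29.3% of all genes. The groups did not overlap, with overexpression higher, in 19 (55.9%), beside 30.9% of all genes. The reverse held for 7 of the 34, beside 31.6% of all genes, and the median log2 fold change of the 34 was 0.21. With glmTreat NLRC5, IRF1 and IRF9 passed, and IKBKE and the 3 genes that fell, IFNGR1, IFNLR1 and HLA-B, did not. The 6 interferon genes listed, IFNB1, IFNE, IFNK, IFNL1, IFNL2 and IFNL3, were not analysed here. With library size alone, and also without overexpressing library 3, B2M passed as a 5th gene that was higher, with log2 fold changes of 0.62 and 0.60 beside 0.56 in the fit with all libraries. Relative to their 50 nearest genes, IKBKE (0.43) and IFNGR1 (-0.24) were under the fold threshold and B2M (0.75) was past it, so that 6 of 34 passed (17.6%), beside 15.5% of all genes.

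Of the receptors and kinases 8 were analysed, of which 2 fell and none rose. IFNGR1, the ligand-binding chain of the receptor for interferon gamma, had 354, 315 and 309 reads in the control libraries and 198, 218 and 252 in the overexpressing libraries. Its groups were separate and its log2 fold change was -0.65 (SE 0.08, edgeR's quasi-likelihood test, Benjamini-Hochberg-adjusted p = 1.94e-05). IFNLR1, the chain particular to the receptor for interferon lambda, had 106, 114 and 85 reads in the control libraries and 57, 53 and 68 in the overexpressing libraries, also separate, and a log2 fold change of -0.87 (SE 0.15, edgeR's quasi-likelihood test, Benjamini-Hochberg-adjusted p = 2.05e-04). The other 6, which include both chains of the receptor for interferon alpha and beta and the JAK kinases, lay between -0.36 and 0.48.

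Of the transcription factors 6 were analysed, of which 2 rose and none fell. IRF9, the subunit that brings its complex with STAT2 to DNA, had 178, 224 and 195 reads in the control libraries and 386, 422 and 356 in the overexpressing libraries. It rose from 16.2 ± 1.94 to 29.8 ± 4.14 CPM (SD, n = 3 per group), a log2 fold change of 0.87 (SE 0.11, edgeR's quasi-likelihood test, Benjamini-Hochberg-adjusted p = 2.54e-05). IRF1, which binds the same kind of element, had 159, 134 and 135 reads in the control libraries and 285, 304 and 274 in the overexpressing libraries, and rose from 11.6 ± 0.950 to 22.1 ± 2.60 CPM (SD, n = 3 per group) with a log2 fold change of 0.92 (SE 0.11, edgeR's quasi-likelihood test, Benjamini-Hochberg-adjusted p = 8.74e-06). The groups were separate in both. STAT2, IRF2 and IRF3, named after their values were seen, had log2 fold changes of 0.47, -0.05 and -0.03, and those of IRF2 and IRF3 had the opposite sign with library size alone.

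None of the 4 analysed negative regulators passed both thresholds. SOCS3, PTPN2, PTPN6 and PIAS1, named after their values were seen, lay between -0.22 and 0.36, and by adjusted p alone 3 were higher and 1 was lower. Of 9 genes of nucleic acid sensing 1 rose, IKBKE, a kinase that phosphorylates IRF3. It had 117, 126 and 107 reads in the control libraries and 182, 213 and 230 in the overexpressing libraries, with separate groups and a log2 fold change of 0.74 (SE 0.09, edgeR's quasi-likelihood test, Benjamini-Hochberg-adjusted p = 1.82e-05). The other 8, which include the DNA sensor CGAS and the adaptors STING1 and MAVS, lay between -0.37 and 0.28, and TLR3 had the opposite sign with library size alone.

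Of 15 listed genes of antigen presentation 7 were analysed, of which 1 rose and 1 fell. NLRC5, the transactivator of MHC class I genes, had 25, 29 and 25 reads in the control libraries and 80, 87 and 66 in the overexpressing libraries. It rose from 2.14 ± 0.173 to 5.97 ± 1.16 CPM (SD, n = 3 per group), a log2 fold change of 1.46 (SE 0.19, edgeR's quasi-likelihood test, Benjamini-Hochberg-adjusted p = 2.86e-05). HLA-B, a class I heavy chain, went the other way with 107, 100 and 99 reads in the control libraries and 66, 63 and 61 in the overexpressing libraries. The groups were separate, and it fell from 8.30 ± 0.244 to 4.87 ± 0.732 CPM (SD, n = 3 per group), a log2 fold change of -0.78 (SE 0.13, edgeR's quasi-likelihood test, Benjamini-Hochberg-adjusted p = 2.56e-04). Reads of HLA genes are hard to place among alleles and paralogs, so this value is less certain. B2M, PSMB10, ERAP1 and ERAP2, named after their values were seen, had log2 fold changes of 0.56, 0.29, 0.13 and 0.22 and did not pass both thresholds.

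**Figure D5:**
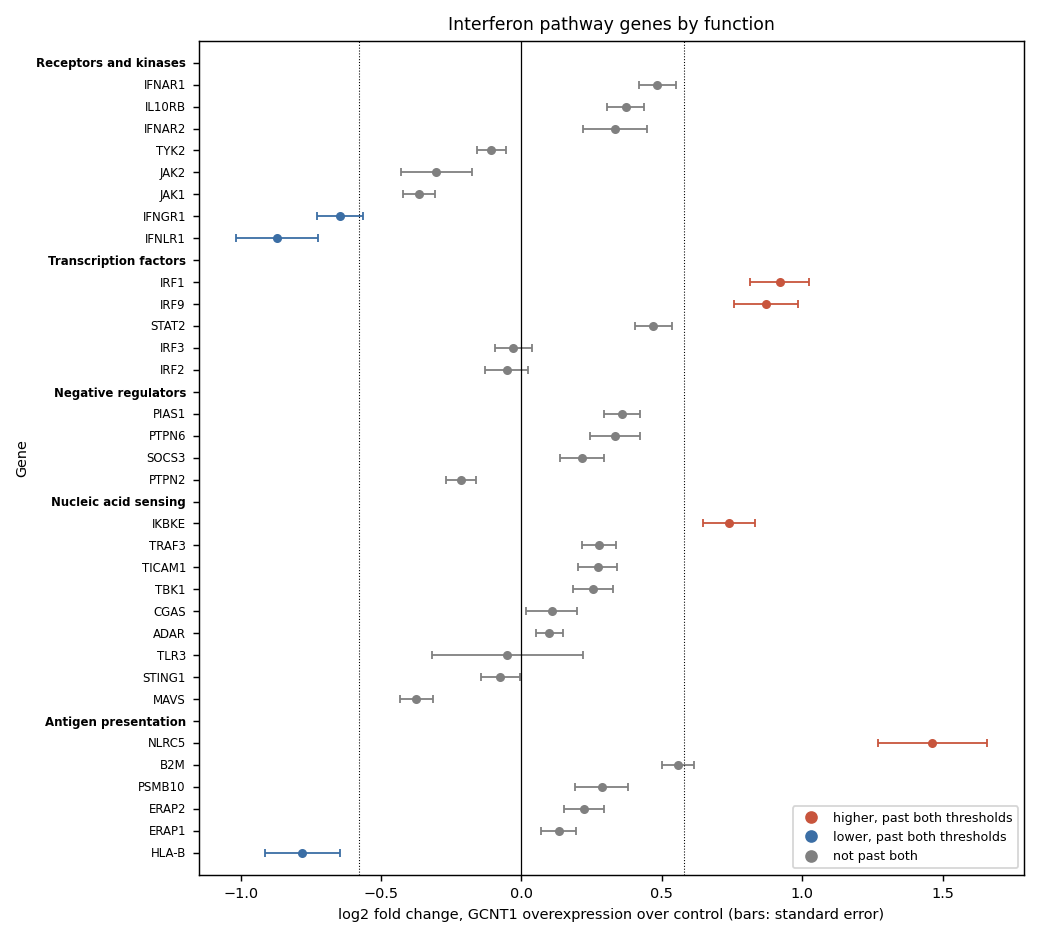
Log2 fold change (overexpression over control) of 32 of the 34 analysed genes of the interferon pathway by function, with bars for the standard error and dotted lines at an absolute value of 0.58. NLRC5, IRF1, IRF9 and IKBKE (red) rose, IFNLR1, HLA-B and IFNGR1 (blue) fell and the genes in grey did not pass both thresholds.

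The markers of PC3 as an epithelial line were present, and some differed between the groups. All 6 epithelial markers were analysed and summed to 845, 893 and 898 CPM in the control libraries and 805, 692 and 733 CPM in the overexpressing libraries, led by KRT19. KRT19 and CDH1 fell, with log2 fold changes of -0.68 and -1.71, and KRT7 rose by 1.65. Of 6 leukocyte markers CD68 alone was analysed, at 83.4, 94.4 and 91.7 CPM in control and 89.5, 80.0 and 83.6 CPM in overexpression, and PTPRC, CD3E, CD14, LYZ and CD74 were not analysed here. Of 3 endothelial markers PECAM1 alone was analysed and rose, from 1.43, 1.93 and 1.95 CPM to 5.10, 3.93 and 4.25 CPM, while CDH5 and VWF were not analysed here. Of 4 fibroblast markers COL1A1 alone was analysed and fell, from 13.7, 15.7 and 14.3 CPM to 8.55, 8.23 and 8.86 CPM, while COL1A2, DCN and LUM were not analysed here. KRT8, EPCAM and CD68 did not pass the test. KRT7 and PECAM1 rose, and KRT19, CDH1 and COL1A1 fell, between the same groups as the interferon-stimulated genes, and their part in the result was not tested.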

How the data were processed

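RNA of 3 control and 3 GCNT1-overexpressing PC3 lines was sequenced as 1 stranded mRNA library each. Working in Galaxy, the authors used Cutadapt for trimming, HISAT2 for mapping to hg38 and featureCounts for counting, and deposited raw read counts per gene. The gene annotation, the strand setting of the counting and the filter on low counts are not stated in the text at hand, so the counts of overlapping genes and of paralogs are uncertain.

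The tool was edgeR 4.0.16 in R 4.3.3. Its filterByExpr kept all 12703 genes, counts were normalised with TMM factors, and the groups were compared by the quasi-likelihood test, with Benjamini-Hochberg adjustment across the table. Genes were taken as changed at an adjusted p under 0.05 and an absolute log2 fold change of at least 0.58. The procedure was checked on simulated data with known answers. Levels are TMM-normalised CPM, and levels per length are CPM per kb of the canonical GENCODE transcript. The floor was 3 counts, or 0.217 to 0.263 CPM. Pairs of libraries within a group differed by a chi-square of 1.65 to 5.61 per degree of freedom, more than counting error. That spread does not show whether the lines of a group arose separately. Each library was treated as a separate sample.

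Named genes were every interferon-stimulated gene that changed, the gene with the largest absolute log2 fold change and the gene with the highest level per length in each of 10 role groups, the pathway genes that changed, up to the 12 largest, and GCNT1. The members, role groups, pathway and marker lists, thresholds and alternatives were chosen with earlier results of these data known. Positions and promoters were taken from RefSeq GRCh38.p14. Shared sequence was counted over 75-base windows of transcripts, and the local median over the 50 nearest analysed genes, with Python 3.11.15.

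Alternatives were limma-voom with robust estimation (limma 3.58.1), DESeq2 1.42.0, library size alone, RLE factors, no filter, at least 10 counts in every library, a mean of at least 5 CPM, the replicate number as a block, glmTreat, adjusted p alone, values relative to the 50 nearest genes, and each library left out in turn. All 6 libraries were used. The 5 listed genes not in the table were left out.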

Additional observations from a re-analysis of the deposited data

How the results depend on the processing

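No gene chosen by the naming rule reversed its direction under any alternative in which it was fitted. Among the other genes ISG20, IRF2, IRF3 and TLR3, all near 0, changed sign with library size alone, and SP100, SP110, LAP3, IFNAR2 and STING1 did so relative to their 50 nearest genes. With library size alone the genes changed over the whole table went from 1052 higher and 1405 lower to 1283 and 1230. The count of changed interferon-stimulated genes was 29 in the fit reported and 49 by adjusted p alone, the count of changed pathway genes was 7 and became 3 with glmTreat, where none of the 3 that fell passed, and 24 by adjusted p alone, and the count over all genes was 2457 and became 1392 with glmTreat and 7314 by adjusted p alone. The median log2 fold change of the interferon-stimulated genes was 0.62 and moved to 0.68 with library size alone, where the median of all genes was 0.06, and to 0.55 over the 50 genes with a mean of at least 5 CPM. The log2 fold change of GCNT1 was 0.98 in DESeq2 with an adjusted p of 0.0821, over a range of 0.0110 to 0.269 across its alternatives, and the cause was not tested. The other counts of changed interferon-stimulated genes were 29 with limma-voom, RLE factors or no filter, 28 with DESeq2, 31 with library size alone, 23 with glmTreat and 27 with at least 10 counts in every library, a minimum that left out MX2, TRIM22 and GCNT1. Leaving out 1 library at a time gave 28 to 31 changed interferon-stimulated genes, 7 to 8 pathway genes, 2409 to 2511 genes in all, a median of 0.61 to 0.67 and a GCNT1 log2 fold change of 0.49 to 1.21. In these fits 27 interferon-stimulated genes passed every time, and 21 passed in every alternative fit of the model, glmTreat and the count minimum included. With the replicate block the count was 29, the same 29 genes, with 7 pathway genes, 2423 genes in all, of which 2414 were shared, and a GCNT1 log2 fold change of 0.94. Control and overexpressing libraries of the same number, each taken as its difference from the mean of its group, correlated at -0.273, -0.0024 and -0.109 across genes, which are not independent replicates.

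These data have 3 libraries a group and no measure of protein or interferon. Genes of a few counts, such as MX2, TRIM22, RSAD2, BST2, GBP1 and GCNT1, have wide errors. The strand setting of the counting is not stated, which bears on genes with exons under other genes. Of the 55 interferon-stimulated genes 9 have exon bases under an exon of the opposite strand, and 5 share more than 10% of their 75-base windows with another gene.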

Other observations

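Among the overexpressing libraries, the interferon-stimulated genes were often lowest in library 3. This held for 32 of the 55 genes (58.2%), where library 3 was the lowest overexpressing library for 27.0% of all genes. Library 2 was the lowest for 6 of the 55 (10.9%), where it was so for 33.8% of all genes. For library 1 this held in 17 of the 55 (30.9%) and in 39.1% of all genes. GCNT1 itself was highest in library 3, at 35 reads beside 13 and 16 in libraries 1 and 2, and its relation to this pattern was not tested. OAS1, OAS2, MX1, IFITM1 and IFI6, named after their values were seen, were among those lowest in library 3. OASL and IFI16, named in the same way, were lowest in library 1. The control libraries also differed in this way. Control library 1 was the lowest for 18.2% of the 55 and 35.3% of all genes, control library 2 for 40% and 27.1%, and control library 3 for 41.8% and 37.6%.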
